A study of Mus musculus with 8 samples.

Results

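The genes described here act in the storage, transport and metabolism of retinoids, the vitamin A compounds. They were chosen by gene symbol as Lrat, Rbp4, Stra6l, Rdh7, Rdh16, Dhrs3, Aldh1a1, Cyp26a1 and Rarb, and all 9 were found among the 25010 genes of the table. RNA-Seq was performed on the left liver lobe of 2 WT and 2 LXRDKO mice, each library from a separate liver. The mice were on a C57BL/6 background, ate standard chow, had an age of 8 wk and went without food for 4 to 6 h. In LXRDKO mice LXRα (Nr1h3) and LXRβ (Nr1h2) are deleted in every tissue, not in hepatocytes alone, and both genotypes were profiled as whole liver. The libraries held 55772659 and 72842744 reads on genes in WT livers and 63681131 and 56281367 in LXRDKO livers. Values are normalized counts, that is, reads on a gene after division by the size factor of the library.

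The liver holds most of the retinoid reserve of the body. Hepatocytes take up dietary retinoids and release retinol into blood bound to retinol-binding protein, whereas hepatic stellate cells store retinoids as retinyl esters in lipid droplets. Retinol is oxidized reversibly to retinaldehyde and then irreversibly to retinoic acid, which binds retinoic acid receptors paired with RXRs and is cleared by cytochrome P450 enzymes of the CYP26 family. RXRs are also the partners of LXRs.

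The deleted receptors were examined first, as a check of the labels. Nr1h3 had 5785 and 5322 normalized counts in WT livers and 1712 and 1826 in LXRDKO livers. Nr1h2 had 2987 and 3110 in WT livers and 925 and 1003 in LXRDKO livers. Both were lower in both LXRDKO livers, with log2 fold changes of −1.65 for Nr1h3 and −1.66 for Nr1h2 (adjusted P = 0.0147 for each, limma). The adjusted P values rose to 0.0954 and 0.0952 without LXRDKO replicate 1 and to 0.0657 and 0.0627 without LXRDKO replicate 2, with log2 fold changes from −1.72 to −1.60. Counts per gene do not show which exons the remaining reads came from.

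One WT library stood apart in genes of the pericentral zone, the hepatocytes around the central vein. All 10 pericentral genes examined had their lowest value in WT replicate 2, where 25.5% of all genes tested had theirs. Their summed level was 780331 and 479115 normalized counts in WT livers and 798647 and 744055 in LXRDKO livers. The most abundant of them, the cytochrome P450 gene Cyp2e1, had 578492 and 359514 normalized counts in WT livers and 594408 and 545766 in LXRDKO livers. None of the 10 was at 0 in any library. In LXRDKO livers 9 of the 10 were higher, where 49.1% of all genes tested were. Of the 10, limma, DESeq2 and edgeR called 0, and limma counted 2 at an unadjusted P value under 0.05, where 13.3% of all genes tested had one. The median log2 difference of WT replicate 2 from WT replicate 1 was −0.66 over these genes and −0.0027 over all genes tested. The log2 fold change of each of the 9 retinoid genes is therefore given with and without this library.

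**Figure D1:**
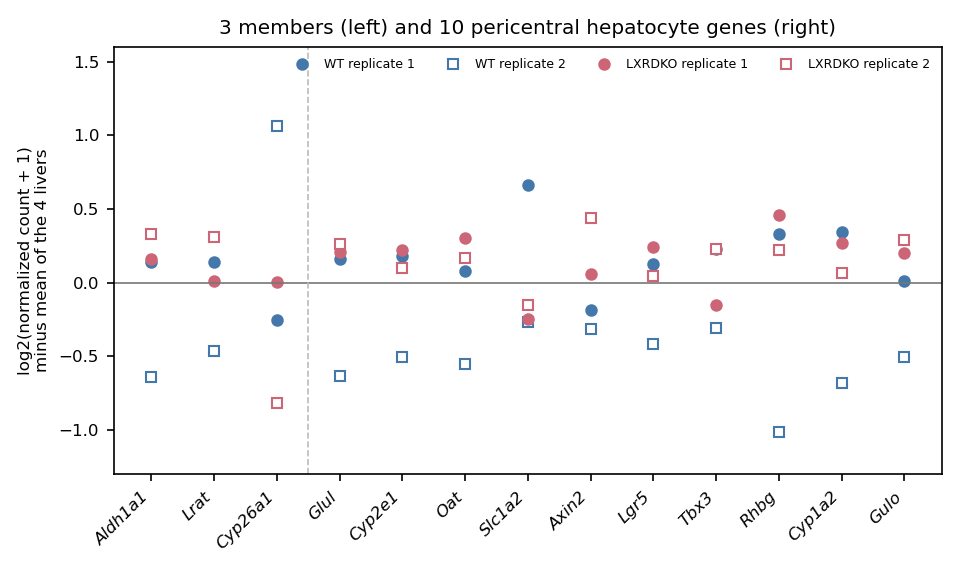
Each point is 1 liver, plotted as log2(normalized count + 1) minus the mean of the 4 livers, for Aldh1a1, Lrat and Cyp26a1 (left of the dashed line) and the 10 pericentral hepatocyte genes (right). WT replicate 2 (open blue squares) has the lowest value for each of the 10 pericentral genes and for Aldh1a1 and Lrat, and the highest for Cyp26a1.

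None of the 9 retinoid genes passed an adjusted P value of 0.05 over the 15578 genes tested with limma, which called 0.321% of all genes tested. DESeq2 and edgeR on the recovered reads also called 0 of the 9, against 3.59% and 0.315% of all genes with an adjusted P value. At an unadjusted P value under 0.05, each of the 3 tools counted 1 of the 9, Dhrs3, and limma counted 13.3% of all genes tested. All 9 genes passed the filter on low values, with 4 higher and 5 lower in LXRDKO livers. Their median log2 fold change was −0.05, and that of all genes tested was −0.0046. The genotypes did not overlap, with LXRDKO higher, for 2 of the 9 (Rbp4 and Aldh1a1), where 21.7% of all genes tested did. They did not overlap, with LXRDKO lower, for 2 (Dhrs3 and Rarb), where 23% of all genes tested did. These shares are close to those of all genes and are no result about the 9 genes.

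A P value over the threshold does not show that the genotypes are alike, so the intervals are given as well. The 95% interval of the log2 fold change lay within a 2-fold change in either direction for 7 of the 9 genes, the exceptions being Aldh1a1 and Cyp26a1. The same held for 68.5% of all genes tested. The WT livers differed from each other by more than the genotypes did for 6 of the 9 genes and for 52.2% of all genes tested. With 2 livers against 2, the smallest P value of an exact two-sided permutation test on 1 gene is 0.333, so the P values rest on the spread that each tool pools across genes.

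**Figure D2:**
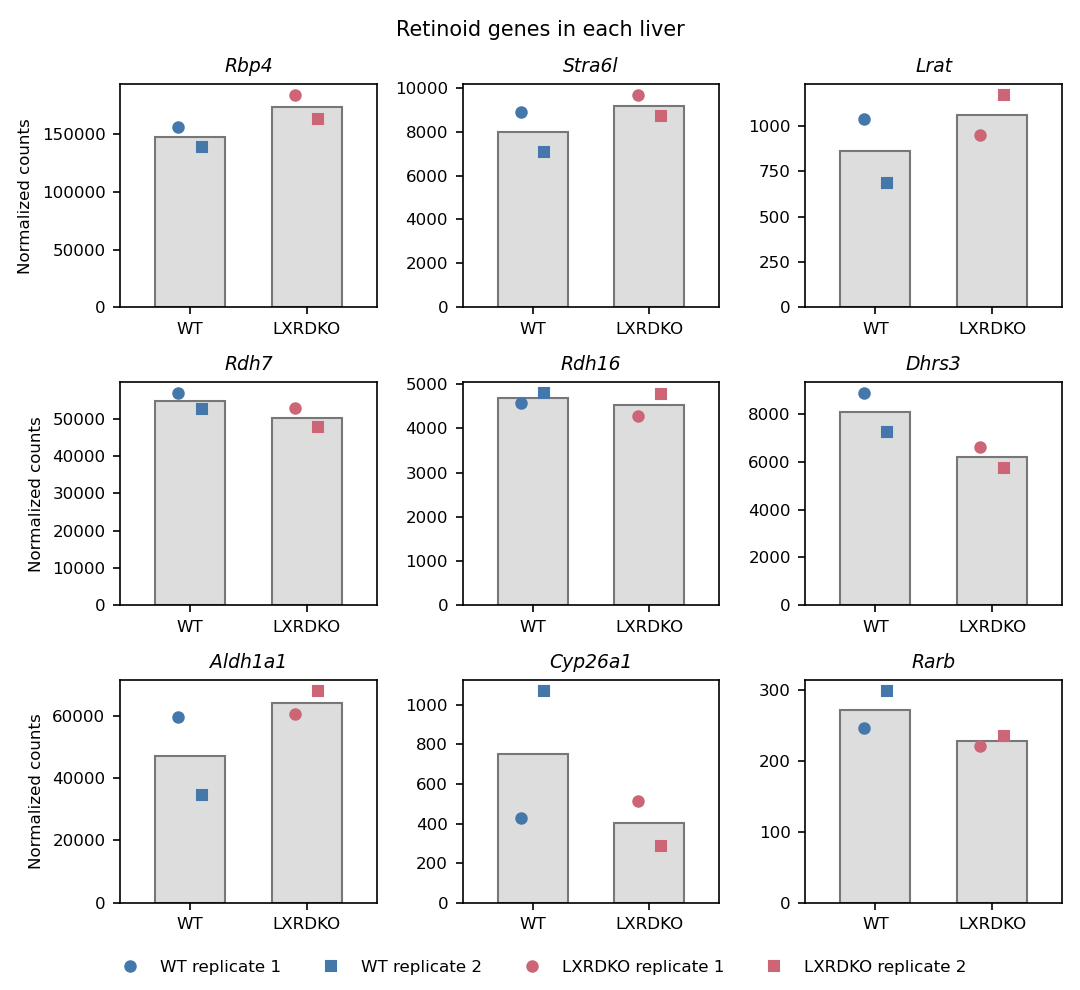
Normalized counts of the 9 retinoid genes in each of 4 livers, with bars at the mean of the 2 livers of a genotype and points for single livers; each axis starts at 0. WT and LXRDKO livers overlap for 5 of the 9 genes.

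**Figure D3:**
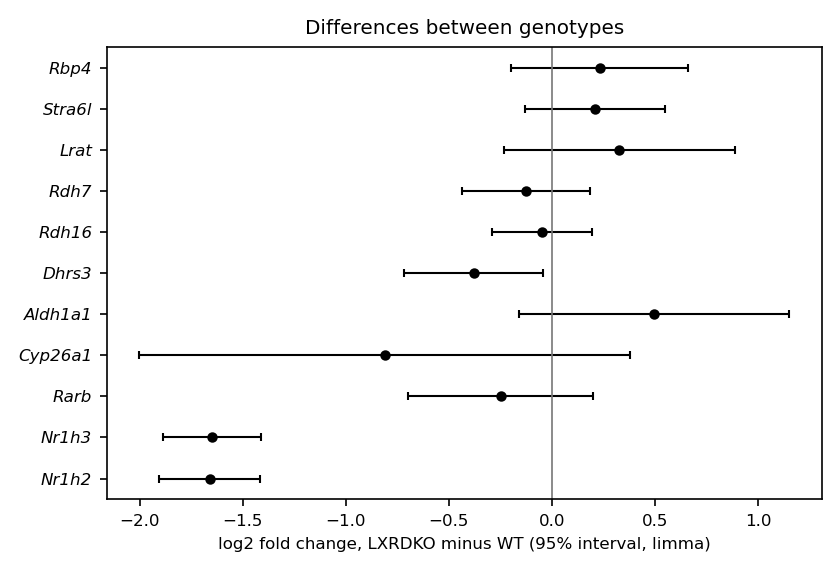
Log2 fold change of LXRDKO over WT with its 95% interval from limma for the 9 retinoid genes and the deleted receptors. The intervals of 8 of the 9 retinoid genes include 0, that of Dhrs3 reaches from −0.72 to −0.04, and those of Nr1h3 and Nr1h2 lie below −1.41.

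Rbp4 encodes the plasma carrier of retinol, which hepatocytes secrete. It is on chr19:38116629-38125281 of GRCm38, on the minus strand. Rbp4 had 155810 and 139179 normalized counts in WT livers and 183761 and 162706 in LXRDKO livers. The LXRDKO livers were each higher than either WT liver, by a margin smaller than the gap between the livers of either genotype. The log2 fold change of Rbp4 was 0.23 (95% interval −0.20 to 0.66, adjusted P = 0.643, limma), and 0.15 without WT replicate 2. For Rbp4 the fits without single livers gave values from 0.14 to 0.32.

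Stra6l, also called Rbpr2, encodes a membrane receptor for retinol-binding protein found in liver and intestine. It is on chr4:45848664-45887008, on the plus strand. Stra6l had 8916 and 7074 normalized counts in WT livers and 9665 and 8703 in LXRDKO livers. WT replicate 1 lay between the LXRDKO livers and WT replicate 2 lay below all other livers. The log2 fold change of Stra6l was 0.21 (95% interval −0.13 to 0.55, adjusted P = 0.596, limma), and it was 0.04 without WT replicate 2. Leaving out WT replicate 1 instead gave 0.37 for Stra6l.

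Lrat encodes the acyltransferase that esterifies retinol for storage and is expressed in stellate cells of the liver. The gene is on chr3:82892579-82903973, on the minus strand. Lrat had 1040.2 and 683 normalized counts in WT livers and 953 and 1171 in LXRDKO livers. The genotypes overlapped, since WT replicate 1 lay between the LXRDKO livers, and WT replicate 2 was the low library. The log2 fold change of Lrat was 0.32 (95% interval −0.24 to 0.88, adjusted P = 0.618, limma). Leaving out WT replicate 2 gave 0.02, and leaving out WT replicate 1 gave 0.63.

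Stellate cell markers were mostly higher in LXRDKO livers, and most had their lowest value in WT replicate 1. Lrat overlapped between the genotypes, and its log2 fold change was 0.02 without WT replicate 2. Of 21 markers, 19 (90.5%, against 49.1% of all genes tested) were higher in LXRDKO livers, the median log2 fold change being 0.36, and none was at 0 in any library. Their summed level was 26289 and 31161 normalized counts in WT livers and 36483 and 38815 in LXRDKO livers. The most abundant marker, Ecm1, which encodes an extracellular matrix protein, had 6569 and 6470 normalized counts in WT livers and 8521 and 8262 in LXRDKO livers. Limma and edgeR called 0 of the 21 markers, and DESeq2 called 3, all higher, where it called 3.59% of all genes in either direction. At an unadjusted P value under 0.05 limma counted 8 markers, all higher, or 38.1% against 5.77% of all genes tested. Of the 21 markers, 15 had their lowest value in WT replicate 1 (71.4%, against 24.9% of all genes tested). Another 5, among them Ecm1, had theirs in WT replicate 2, as Lrat did (23.8% against 25.5%). The median log2 difference of WT replicate 2 from WT replicate 1 over the 21 markers was 0.26. The markers called by DESeq2 were Reln, Dcn and Lhx2, named after their values were seen. In whole liver, a change in the number of cells of a type and a change in RNA per cell cannot be told apart. The part of the stellate cell markers in the value of Lrat was not tested.

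Rdh7 and Rdh16 encode retinol dehydrogenases of the short-chain dehydrogenase family, which oxidize retinol to retinaldehyde, and lie in a cluster of related genes. Rdh7 is on chr10:127884028-127888817, on the minus strand, and had 57051 and 52769 normalized counts in WT livers and 53014 and 47765 in LXRDKO livers. The genotypes overlapped, with a log2 fold change of −0.12 (95% interval −0.44 to 0.19, adjusted P = 0.742, limma) that was −0.18 without WT replicate 2 and ranged from −0.20 to −0.05 over the fits without single livers. Rdh16 is on chr10:127801152-127846565, on the plus strand, and had 4566 and 4802 normalized counts in WT livers and 4275 and 4787 in LXRDKO livers. Its livers overlapped, and its log2 fold change of −0.05 (95% interval −0.29 to 0.19, adjusted P = 0.888, limma) was the smallest in size among the 9 genes. It was −0.0133 without WT replicate 2. The sign of Rdh16 turned under scaling to the library total, to 0.0048, and without LXRDKO replicate 1, to 0.0319, and without LXRDKO replicate 2 it was −0.13.

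Reads of these genes may be shared with their relatives. Of the distinct 50-base stretches in the transcripts of Rdh7, 12.9% also occur in transcripts of other genes, most often in the pseudogene Rdh18-ps (10.9%) and in Rdh1 (9.57%). For Rdh16 the share was 14.5%, most often with Rdh9 (6.28%) and Rdh18-ps (6.04%). Rdh7 and Rdh16 share 25 such stretches with each other. The tool that counted the reads and its treatment of shared reads were not given in the sources used here, so how far reads of relatives enter the values of Rdh7 and Rdh16 is not known. These shares set no limit to it, since an abundant relative could add many reads to a less abundant gene. Of the relatives named above, Rdh18-ps, Rdh1 and Rdh9 had lower values than Rdh7 and Rdh16. Over the livers these ranged from 6.43 to 17.0 normalized counts for Rdh18-ps, from 9.49 to 22.5 for Rdh1 and from 586 to 700 for Rdh9. The same counting gave these values. Rdh7 was the more abundant relative of Rdh16, with means of 31377 and 741 normalized counts per kb of exon. Rdh16f1, which was not analysed here, held 7.24% of the stretches of Rdh7 and 5.88% of those of Rdh16. Exons of Rdh18-ps also overlap those of Rdh16 on the same strand, over 6.13% of the exon bases of Rdh16. Aldh1a1 shared 3.06% of its stretches with its neighbor Aldh1a7, and Lrat, Rbp4, Cyp26a1, Dhrs3 and Stra6l shared 0 with any other gene.

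Dhrs3 encodes a retinaldehyde reductase, which returns retinaldehyde to retinol, and its transcription is known to respond to retinoic acid. It is on chr4:144892827-144928209, on the plus strand. Dhrs3 had 8897 and 7259 normalized counts in WT livers and 6639 and 5741 in LXRDKO livers. Each LXRDKO liver was lower than either WT liver. For Dhrs3 the log2 fold change was −0.38 (95% interval −0.72 to −0.04), with an unadjusted P value of 0.0327 and an adjusted P = 0.327 over all genes tested (limma). The adjusted P value was 0.269 from DESeq2 and 0.344 from edgeR. Without 1 liver at a time the log2 fold change lay between −0.53 (without WT replicate 2) and −0.23 (without WT replicate 1).

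Aldh1a1 encodes retinaldehyde dehydrogenase 1, which oxidizes retinaldehyde to retinoic acid. It is on chr19:20492715-20643465, on the plus strand. Aldh1a1 had 59579 and 34626 normalized counts in WT livers and 60409 and 67987 in LXRDKO livers. Each LXRDKO liver was higher than either WT liver, but WT replicate 1 was close to LXRDKO replicate 1, and WT replicate 2 was the low library. For Aldh1a1 the log2 fold change was 0.50 (95% interval −0.16 to 1.15, adjusted P = 0.496, limma). Without WT replicate 2 it was 0.11. Without WT replicate 1 it was 0.89, and this was the one setting in which a gene of the 9 passed the threshold (adjusted P = 0.0425, limma; 0.0425 to 0.855 over all settings tried). The pericentral genes were low in the same library, WT replicate 2, and their part in the value of Aldh1a1 was not tested.

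Cyp26a1 encodes the main retinoic acid hydroxylase of liver and is a classic retinoic acid-induced gene. It is on chr19:37697798-37701536, on the plus strand. Cyp26a1 had 429 and 1071 normalized counts in WT livers and 514 and 289 in LXRDKO livers. WT replicate 2 was the high library, and WT replicate 1 lay between the LXRDKO livers. For Cyp26a1 the log2 fold change was −0.81 (95% interval −2.001 to 0.38, adjusted P = 0.550, limma), the widest interval of the 9 genes. Without WT replicate 2 it was −0.15, and without WT replicate 1 it was −1.47 (adjusted P = 0.0958, limma). Leaving out LXRDKO replicate 1 gave −1.22 for Cyp26a1, and leaving out LXRDKO replicate 2 gave −0.40. The WT livers differed by 1.32 and the LXRDKO livers by 0.83 on the log2 scale.

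Rarb encodes retinoic acid receptor β, which is itself induced by retinoic acid. It is on chr14:16430839-16819156, on the minus strand. Rarb had 246 and 299.6 normalized counts in WT livers and 221 and 236 in LXRDKO livers. Values were lower in each LXRDKO liver than in either WT liver, and the log2 fold change was −0.25 (95% interval −0.70 to 0.20, adjusted P = 0.634, limma). Leaving out WT replicate 2 gave −0.11 for Rarb, and leaving out WT replicate 1 gave −0.39. The exons of Rarb overlap those of Top2b, which encodes DNA topoisomerase IIβ on the opposite strand, over 34.1% of their bases. Top2b had 4201 and 4103 normalized counts in WT livers and 3968 and 3934 in LXRDKO livers. The library kit keeps strand, but the strand setting of the counting was not given in the sources used here, so reads of Top2b may be counted in Rarb.

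Levels were compared between genes as normalized counts per kb of exon. The order from high to low was Rbp4, Rdh7, Aldh1a1, Dhrs3, Stra6l, Rdh16, Cyp26a1, Lrat and Rarb. Over the 4 livers the mean level was 119407 per kb for Rbp4 and 47.6 per kb for Rarb. Neighbors in this order lay apart in every liver except for Stra6l and Rdh16, with 898 and 741 per kb, and Cyp26a1 and Lrat, with 290.5 and 179.7 per kb. Lengths are those of all annotated exons joined, so genes with long or rare exons are understated.

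Other genes of retinoid metabolism were examined by role. Of 46 found in the table, 39 passed the filter on low values. Limma called 0 of the 39, edgeR 0 and DESeq2 1. Of all genes they called 0.321%, 0.315% and 3.59% in this order, in either direction. At an unadjusted P value under 0.05, limma counted 1 higher and 4 lower, or 2.56% and 10.3% of the 39, where 5.77% and 7.5% of all genes tested did. DESeq2 at the same level counted 1 higher and 9 lower, the latter 23.1% of the 39 against 6.59% of all genes tested. The corresponding lower count from edgeR was 5, or 12.8% against 7.08%. Values in LXRDKO lay under both WT values for 13 of the 39 (33.3%, against 23% of all genes tested) and over both for 7 (17.9%, against 21.7%). The median log2 fold change was −0.02 (−0.0046 over all genes tested), with 17 genes higher and 22 lower. The gene that DESeq2 called was Rarres2, which encodes chemerin.

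Rarres2 was also the most abundant of the 4 tested retinoic acid-responsive genes. It had 20170 and 21705 normalized counts in WT livers and 29497 and 27072 in LXRDKO livers. Values were higher in each LXRDKO liver than in either WT liver, with a log2 fold change of 0.43 (95% interval 0.17 to 0.70) and an adjusted P value of 0.203 from limma, 0.222 from edgeR and 0.0352 from DESeq2. Rarres1 had the largest change of this role, with 4697 and 1431 normalized counts in WT livers and 3621 and 4652 in LXRDKO livers. Its log2 fold change was 0.66 and became −0.19 when WT replicate 2 was left out and 1.52 (adjusted P = 0.0121, limma) when WT replicate 1 was.

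Among the carriers, Ttr encodes transthyretin, which holds the retinol-binding protein complex in blood. It had 306694 and 292682 normalized counts in WT livers and 284451 and 286106 in LXRDKO livers, a log2 fold change of −0.07 (adjusted P = 0.924, limma) that ranged from −0.10 to −0.04 without single livers.

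Of the 5 genes of ester formation and hydrolysis, 3 were higher and 2 lower. Pnpla2, the most abundant, encodes adipose triglyceride lipase and had 10626 and 14717 normalized counts in WT livers and 15703 and 16118 in LXRDKO livers (log2 fold change 0.35, adjusted P = 0.442, limma). For Pnpla2 this became 0.11 without WT replicate 1 and 0.58 (adjusted P = 0.0981, limma) without WT replicate 2. Pnpla3 encodes a lipase with retinyl ester hydrolase activity and had 11.4 and 75.5 normalized counts in WT livers and 5.70 and 7.50 in LXRDKO livers. Pnpla3 had a log2 fold change of −2.03 (95% interval −4.22 to 0.16, adjusted P = 0.404, limma), and WT replicate 2 stood far above the other livers. Without that library the mean of Pnpla3 fell under the filter on low values and the gene was not tested. With WT replicate 1 left out instead, so that the high library alone stood for WT, the log2 fold change was −3.34 (adjusted P = 0.0477, limma).

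The tested oxidoreductases of retinol and retinaldehyde numbered 15, of which 7 were higher and 8 lower (median log2 fold change −0.00021). At an unadjusted P value under 0.05 DESeq2 counted 4 lower (26.7%, against 6.59% of all genes tested) and 0 higher. Limma and edgeR each counted 1 lower and 0 higher. For LXRDKO 5 of the 15 (33.3%) lay under both WT values and 2 (13.3%) over both, against 23% and 21.7% of all genes tested. Adh1, an alcohol dehydrogenase gene and the most abundant of the 15, had 114220 and 113554 normalized counts in WT livers and 83444 and 102002 in LXRDKO livers. In each LXRDKO liver Adh1 was lower than in either WT liver, the log2 fold change being −0.30 (adjusted P = 0.495, limma). Leaving out LXRDKO replicate 1 gave −0.16 for Adh1, and leaving out LXRDKO replicate 2 gave −0.45. Dhrs9 had the largest change, −1.14 on the log2 scale, from 29.7 and 96.8 normalized counts in WT livers and 33.2 and 17.2 in LXRDKO livers that overlapped. It rested largely on WT replicate 2, without which it was −0.30; without WT replicate 1 it was −1.97.

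Of 5 genes of retinaldehyde oxidation, 2 were higher and 3 lower. Aox3, an aldehyde oxidase gene, had 69665 and 53789 normalized counts in WT livers and 55554 and 56758 in LXRDKO livers. Its genotypes overlapped (log2 fold change −0.12, adjusted P = 0.808, limma), and leaving out WT replicate 2 or WT replicate 1 gave −0.31 or 0.0621. Aldh1a3, a further retinaldehyde dehydrogenase gene, had 27.4 and 47.5 normalized counts in WT livers and 50.3 and 63.2 in LXRDKO livers (log2 fold change 0.63, adjusted P = 0.553, limma; 1.02 without WT replicate 2 and 0.24 without WT replicate 1).

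Cyp26b1, a retinoic acid hydroxylase gene like Cyp26a1, had 746 and 90.8 normalized counts in WT livers and 219 and 318 in LXRDKO livers. The WT livers differed by more than the LXRDKO livers did, and in the opposite direction from Cyp26a1. Cyp26b1 had a log2 fold change of 0.02 (95% interval −2.28 to 2.32, adjusted P = 0.997, limma), and −0.64 from DESeq2. Without WT replicate 2 it was −1.49, and without WT replicate 1 it was 1.53. Of the carotenoid cleavage genes, Bco2 had 1442 and 1153 normalized counts in WT livers and 1095 and 935 in LXRDKO livers (log2 fold change −0.35, adjusted P = 0.408, limma). Leaving out WT replicate 1 gave −0.19 for Bco2, and leaving out WT replicate 2 gave −0.51.

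Of 5 retinoid receptor genes, 1 was higher and 4 lower. Rxra, the most abundant, had 42904 and 36653 normalized counts in WT livers and 37290 and 33634 in LXRDKO livers (log2 fold change −0.16, adjusted P = 0.667, limma; −0.28 without WT replicate 2 and −0.05 without WT replicate 1). Rxrg had 307 and 424 normalized counts in WT livers and 249.6 and 249.8 in LXRDKO livers. Rxrg was lower in each LXRDKO liver than in either WT liver, with −0.53 as the log2 fold change (adjusted P = 0.357, limma; −0.30 without WT replicate 2 and −0.76 without WT replicate 1).

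The remaining marker lists describe the tissue. Over all genes tested 49.1% were higher and 50.9% lower in LXRDKO livers, and limma counted 5.77% higher and 7.5% lower at an unadjusted P value under 0.05. Of all genes, limma called 0.321%, edgeR 0.315% and DESeq2 3.59% in either direction. Hepatocyte markers were present in every library, with a summed level of 7379510 and 8382260 normalized counts in WT livers and 7806700 and 7122130 in LXRDKO livers, and Alb, the albumin gene, was the most abundant. Of 9 hepatocyte markers, 5 were higher and 4 lower in LXRDKO livers; limma and edgeR called 0, with 1 at an unadjusted P value under 0.05 in each, and DESeq2 called 1 higher (Hnf4a). Kupffer cell markers were lower for 8 of 9, with a summed level of 12955 and 14098 in WT livers and 6818 and 3998 in LXRDKO livers. Limma called 4 of these 9 lower, edgeR 5 and DESeq2 6. At an unadjusted P value under 0.05 limma counted 7 of the Kupffer cell markers lower (77.8%, against 7.5% of all genes tested). The most abundant of them, the receptor gene Csf1r, overlapped between the genotypes, and Timd4 was at 0 in LXRDKO replicate 2. Sinusoidal endothelial markers were lower for 9 of 10, with a summed level of 19306 and 17136 in WT livers and 15147 and 11244 in LXRDKO livers. Of these 10, 9 had their lowest value in LXRDKO replicate 2 (90%), as did 8 of the 9 Kupffer cell markers (88.9%). Among all genes tested 25.7% did. The median log2 difference of LXRDKO replicate 2 from LXRDKO replicate 1 was −0.38 over the sinusoidal and −0.79 over the Kupffer cell markers. Limma and edgeR called 1 of the 10 sinusoidal markers lower (Kdr) and DESeq2 called 2 (Kdr and Dnase1l3), and the most abundant was the scavenger receptor gene Stab1. At an unadjusted P value under 0.05 limma counted 6 of the 10 lower (60%, against 7.5% of all genes tested), as did DESeq2 and edgeR. Values in LXRDKO lay under both WT values for 7 of the 10 (70%, against 23% of all genes tested). Cholangiocyte markers were higher for 6 of 6, with a summed level of 2084 and 3599 in WT livers and 4572 and 5426 in LXRDKO livers and Spp1 the most abundant. Limma and edgeR called 0 of these 6, with 3 and 4 at an unadjusted P value under 0.05, and DESeq2 called 1 (Epcam). Periportal hepatocyte genes were higher for 5 of 9, with a summed level of 571976 and 584004 in WT livers and 681761 and 661081 in LXRDKO livers and Pck1 the most abundant. Limma and edgeR called 0 of these 9, with 1 at an unadjusted P value under 0.05 in each, and DESeq2 called 1 higher (Sds). The called markers were named after their values were seen. The part of these lists in the values of the retinoid genes was not tested.

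The promoters of the 9 genes were searched on both strands for direct repeats of nuclear receptor half-sites with 1, 2, 4 or 5 bases between them. The first half-site searched was AGGTCA, the common form for many nuclear receptors. A second form searched in the same way was AGTTCA. A further form allowed at either position was GGGTCA. The last form allowed at either position was GGTTCA. RefSeq promoters on GRCm38.p6, from 250 bases before to 50 bases after the start, were found for all 9 genes. For Rarb the only window was chr14:16575427-16575726, which lies inside the gene span given above, at an internal start. The upstream end of that span was not searched. Repeats with 5 bases between half-sites were found for Rarb and Cyp26a1, the retinoic acid-induced receptor and hydroxylase, and such repeats occur in 0.0983% of 32544 distinct promoters. No repeat with 1, 2 or 4 bases between half-sites was found in these windows, and such repeats occur in 0.224%, 0.27% and 0.083% of all promoters. The matches are shown with 6 bases on each side, in the direction of the gene, and capitals mark the repeat. The Rarb stretch is chr14:16575507-16575535 on the minus strand, and the Cyp26a1 stretch is chr19:37697770-37697798 on the plus strand, where the repeat reads on the opposite strand.
Rarb: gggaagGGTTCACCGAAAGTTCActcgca
Cyp26a1: taaagaTGAACTTTGGGTGAACTaatttg
Both genes had lower means in LXRDKO livers, and neither passed the threshold. The genotypes overlapped for Cyp26a1. Without WT replicate 2 the log2 fold changes were −0.15 for Cyp26a1 and −0.11 for Rarb. A match of letters is a description and does not show binding.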

How the data were processed

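Polyadenylated RNA of each liver was sequenced with a KAPA Stranded kit as single-end reads of 50 bp. The authors aligned the reads to mm10 with STAR 2.6.0c and normalized with DESeq2. The deposited signal consists of normalized counts, reads on a gene divided by a size factor per library (0.877 and 1.18 in WT, 1.05 and 0.933 in LXRDKO). All values (100%, within 0.01 of a whole number) were whole multiples of 1 read, so reads were recovered.

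Genes were joined to GENCODE M21 on GRCm38 by identifier (24987 matched, 23 not). Log2(normalized count + 1) was tested with limma 3.58.1 in R 4.3.3, with a variance trend, on genes whose mean reached 10 normalized counts, with Benjamini-Hochberg adjustment over all genes tested. Fold changes on this scale understate changes of low genes. DESeq2 1.42.0, at its default level of 0.1 for independent filtering, and edgeR 4.0.16 (quasi-likelihood) were run on recovered reads and called 567 and 49 genes, against 50 with limma. DESeq2 had first been run with filtering at 0.05, which gave 580 calls; the default was adopted after both counts, and an earlier result of these data with the default, were known. Calls among the retinoid genes were the same under both. The tests were tested on simulated data. Intervals of fold changes are those of limma and rest on the spread between livers, pooled across genes.

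The members and lists were chosen with earlier results of these data known. Genes named are the 9 genes, Nr1h3, Nr1h2, other retinoid genes called by limma or DESeq2, and in each role the most abundant gene and that with the largest change; of each marker list, the most abundant gene and any marker at 0. The values of 1 gene that this rule names are not reported here. A rule for genes nearest in pattern to called members did not apply. Alternatives were pseudocounts of 0.5 and 8, other filters, scalings, limma settings and tools, the replicate block and leaving out each liver. Chromatin accessibility was not analysed here. Rbp7, Crabp1, Crabp2, Stra6, Rpe65, Rdh8, Rdh16f1 and Tf, which the lists also name, were not analysed here.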

Additional observations from a re-analysis of the deposited data

How the results depend on the processing

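The number of genes called was 50 with limma. It became 25 with a minimum mean of 50 normalized counts and 1 without the variance trend. It was 567 with DESeq2 at its default filtering level, 580 with DESeq2 filtered at 0.05, and from 2 to 262 without single livers. Filtering at 0.05 was run first, and the default level was chosen after seeing the data, with both counts known. Of the 9 retinoid genes, 0 were called under every setting except without WT replicate 1, which called 1 (range 0 to 1). Of the other retinoid genes, 1 was called by DESeq2 at either filtering level, and 0 to 2 without single livers. A lone liver was there assumed to vary like the other genotype. The median log2 fold change of the 9 genes was 0.0048 with library total scaling and ranged from −0.0685 to 0.0319 without single livers. That of the other retinoid genes was 0.0307 with library total scaling, −0.0711 with DESeq2 at either level, −0.0623 with edgeR and −0.16 to −0.0231 without single livers. Library total scaling moved the median of all genes by 0.05. Signs turned for Rdh16 (0.0048 with library total scaling; −0.13 to 0.0319 without single livers), Aox3 (−0.31 to 0.0621), Rarres1 (−0.19 to 1.52) and Cyp26b1 (−0.0032 with a pseudocount of 8, −0.64 with DESeq2 at either level, −0.62 with edgeR, −1.49 to 1.53 without single livers). The calls of Nr1h3 and Nr1h2 were lost without the variance trend (adjusted P = 0.212 for each, limma) and without either LXRDKO liver. Apart from fewer samples or genes, the cause was not tested. The difference of replicate 1 from replicate 2 in WT and that in LXRDKO had a correlation of 0.0031 over all genes tested. With 2 livers per genotype this value cannot show that same-numbered livers are unpaired. With the replicate block 90 genes were called, of the retinoid genes 0.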
